A study of Homo sapiens with 24 samples.

Results

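TWIST2 regions that carried the active histone mark H3K27ac in every H3K27ac library, but had no peak of the muscle regulator MYOD in any MYOD library, were examined in RD cells. RD is an established human cell line from a rhabdomyosarcoma without a fusion gene, a tumour whose cells start the skeletal muscle programme and do not complete it. The 2 peak lists of tagged TWIST2 were merged where peaks overlapped by at least 1 bp, and 48591 merged regions with a peak in both lists are called TWIST2 regions. Of these, 2589 (5.33%) overlapped a peak in all 4 H3K27ac lists and in none of the 4 MYOD lists, and they are called MYOD-free active regions. They were chosen by the presence and absence of these peaks, so H3K27ac and the lack of MYOD at them are the rule and not a result.

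The data are peak lists from chromatin immunoprecipitation followed by sequencing (ChIP-seq), in which an antibody pulls down DNA bound by a protein or carrying a mark. The groups used were RD cells with TWIST2 knockdown (KD) and RD control cells, with 2 libraries each for H3K27ac, MYOD and SMARCA4, and RD cells labelled 3xTy1-TWIST2, with 2 libraries of a Ty1 antibody against the tag. The labels do not say how the knockdown was made, how tagged TWIST2 was expressed, or whether replicates were separate cultures, so any p-value measures only the spread between these libraries. H3K27ac, MYOD and Ty1 came from the set labelled RD-1 and SMARCA4 from the set labelled RD-2. Because the Ty1 cells were neither control nor KD cells, the regions show where tagged TWIST2 lay, and no Ty1 library of untagged cells was used here.

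TWIST2 and MYOD are both basic helix-loop-helix transcription factors, which bind DNA at short motifs called E-boxes. MYOD drives skeletal muscle differentiation, and TWIST2 belongs to a family known for holding cells in a mesenchymal, undifferentiated state and for opposing MYOD in muscle precursors. H3K27ac marks active promoters and enhancers. SMARCA4 (BRG1) is the motor subunit of SWI/SNF complexes, which move nucleosomes and are brought to muscle genes together with MYOD during differentiation. No annotation or sequence of build hg19, in which the peaks lie, was used here, so regions are named by their hg19 position only.

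The lists held 48022 and 46822 H3K27ac peaks in KD and 36679 and 34932 in control libraries. MYOD had 52510 and 48003 peaks in KD and 44974 and 43381 in control libraries. Ty1 had 74087 and 71100 peaks. SMARCA4 had 12518 and 14676 peaks in KD and 11835 and 25013 in control libraries, from 36095336 to 46690705 total tags per library, and control replicate 2 stood apart by its number of peaks. The H3K27ac, MYOD and Ty1 lists hold no tag counts, so the depth behind them is unknown, and a missing peak means only that none was called.

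MYOD-free active regions made up 17.5% of the 14785 TWIST2 regions with H3K27ac in all 4 lists, and 10.3% of the 25217 TWIST2 regions without any MYOD peak. The largest group with H3K27ac in all 4 lists had MYOD in all 4 as well, with 5727 regions. Just outside the rule lay 1769 regions with H3K27ac in 4 lists and MYOD in a single list. That single peak came from KD replicates 1 and 2 in 485 and 424 cases and from control replicates 1 and 2 in 456 and 404, so each MYOD library removed a similar number. On the H3K27ac side, 514 MYOD-free regions had the mark in 3 lists. A further 1278 (5.07% of the MYOD-free regions) had it in both KD and no control library, against 265 (1.05%) in both control and no KD library. Over all TWIST2 regions these shares were 8.29% and 1.63%, and the KD H3K27ac lists were the longer ones.

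**Figure D1:**
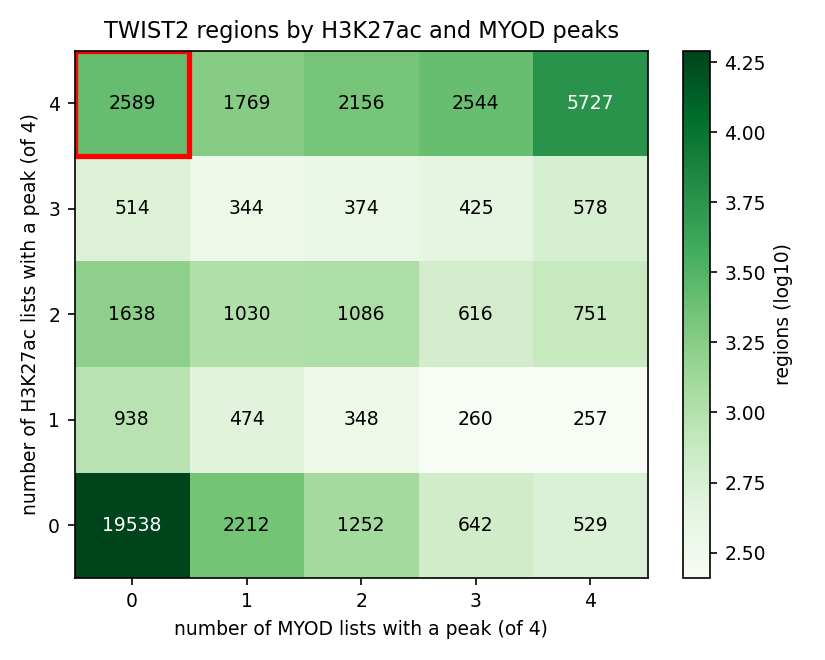
Numbers of TWIST2 regions by the number of H3K27ac lists (vertical axis) and MYOD lists (horizontal axis) with a peak, with shading on a log10 scale. The outlined cell holds the 2589 MYOD-free active regions, and the corner cells hold 19538 regions with neither kind of peak and 5727 with both in all lists.

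The MYOD-free active regions stood above the middle of the TWIST2 lists. Every peak was 239 bp wide in Ty1 replicate 1 and 231 bp in replicate 2, so region widths hold no information on peak shape. The merged regions had a median width of 265 bp (quartiles 248 and 290), and the peak centres of the 2 Ty1 replicates lay a median of 30 bp apart, against 33 bp over all TWIST2 regions. The Ty1 lists have no score, so their line order served as rank, with 100 at the top of the list. What that order stands for is not stated. MYOD-free active regions had a median percentile of 72.2, against 61.0 over all TWIST2 regions and 48.9 at those with neither H3K27ac nor MYOD. Among TWIST2 regions with H3K27ac in 4 lists, the median was 69.5 with MYOD in 1 to 3 lists and 79.7 with MYOD in 4. Within the upper 10% of the order lay 523 MYOD-free active regions (20.2%), against 13.6% of all TWIST2 regions. With H3K27ac in 4 lists, the share was 17.5% with MYOD in 1 to 3 lists and 28.6% with MYOD in 4.

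SMARCA4, which the rule did not use, was rare at MYOD-free active regions. A SMARCA4 peak overlapped 102 (3.94%) and 112 (4.33%) of the 2589 regions in KD replicates 1 and 2, and 62 (2.39%) and 183 (7.07%) in control replicates 1 and 2. The 95% Wilson intervals were 3.26% to 4.76%, 3.61% to 5.18%, 1.87% to 3.06% and 6.14% to 8.12% in the same order, and they cover counting error only. Over all TWIST2 regions the shares were 7.62% and 8.58% in KD and 8% and 16.4% in control libraries. Over all TWIST2 regions with H3K27ac in 4 lists, they were 14.4% and 14.7% in KD and 17.4% and 33.8% in control libraries. The MYOD-free active regions lay below both backgrounds in all 4 libraries.

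The share with SMARCA4 climbed with the number of MYOD lists at TWIST2 regions that all had H3K27ac in 4 lists. At 0, 1, 2, 3 and 4 MYOD lists it averaged 4.13%, 7.43%, 10.8%, 14.0% and 23.2% over the KD libraries. Over the control libraries it averaged 4.73%, 12.2%, 20.1%, 25.6% and 41.3%. The step between 0 and 1 list was present in each library, with 3.94% at 0 and 7.18% at 1 in KD replicate 1, and 2.39% at 0 and 7.29% at 1 in control replicate 1, for example. Regions with MYOD in 1 list are the nearest neighbours of the MYOD-free set, and they still had more SMARCA4 whichever MYOD library held the peak: 5.48% to 9.20% in the KD and 5.92% to 19.3% in the control SMARCA4 libraries.

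**Figure D2:**
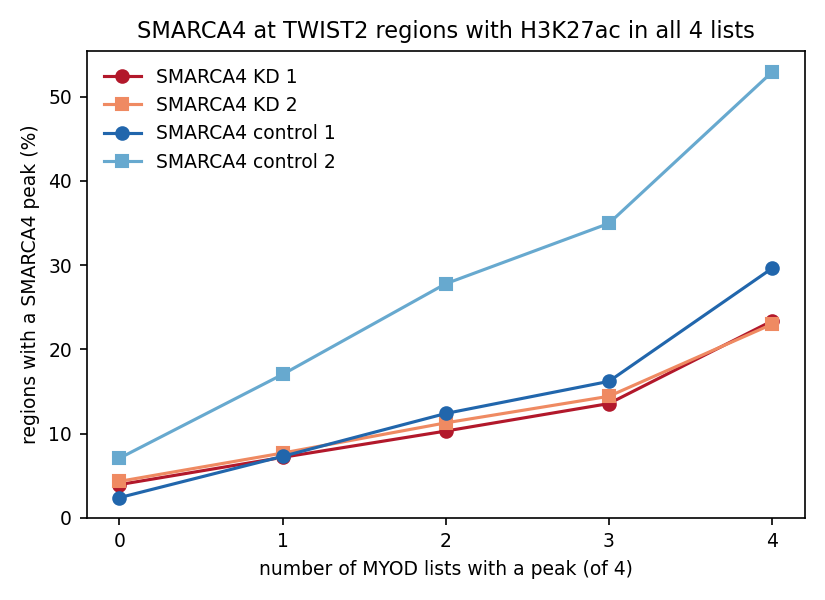
Share of TWIST2 regions with a SMARCA4 peak (vertical axis, percent) by the number of MYOD lists with a peak (horizontal axis), for the 2 KD and 2 control SMARCA4 libraries, all at regions with H3K27ac in 4 lists. Every library has its lowest share at 0 MYOD lists, from 2.39% to 7.07%, and its highest at 4, from 23.0% to 52.9%.

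Set against TWIST2 regions with H3K27ac and MYOD in all 4 lists, MYOD-free active regions had SMARCA4 less often in 4 of 4 libraries. The shares at the regions with MYOD were 23.4% and 23.0% in KD and 29.6% and 52.9% in control libraries. The difference averaged -27.8 ± 12.6 percentage points (SD, n = 4 libraries, exact two-sided sign permutation p = 0.13, the smallest that this test allows over 4 libraries). Against regions with MYOD in 1 to 3 lists it averaged -11.2 ± 6.45 points (n = 4, exact p = 0.13). Against the 19538 TWIST2 regions with neither H3K27ac nor MYOD, MYOD-free active regions were higher by 3.07 ± 1.36 points (n = 4, exact p = 0.13), since SMARCA4 was at 0.88% and 1.53% of those in KD and at 0.829% and 2.20% in control libraries. The sign permutation cannot pass 0.05 with 4 libraries, whatever the size of the differences.

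The contrast held inside single H3K27ac domains. Merged H3K27ac regions with a peak in all 4 lists are called domains, and 320 of them contained both a MYOD-free active region and a TWIST2 region with MYOD in 4 lists. There SMARCA4 overlapped 4.23% and 5.74% of the 331 MYOD-free regions in KD and 2.42% and 4.53% in control libraries. In the same domains it overlapped 28.1% and 22.2% of the 334 regions with MYOD in KD and 32.0% and 58.7% in control libraries. The difference was -31.0 points on average over 4 libraries (exact sign permutation p = 0.13, an analysis chosen after seeing the data). Weighting the regions with MYOD to the Ty1 list positions of the MYOD-free ones, also chosen after seeing the data, gave -26.6 points.

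Where SMARCA4 did overlap a MYOD-free active region, the median height of its peaks was close to that of the list, slightly below it in 3 libraries and slightly above it in KD replicate 2. The normalized tag count, which HOMER scales to 10000000 tags, had a median of 4.57 and 4.63 at these regions in KD and 6.85 and 6.47 in control libraries. The medians of the whole lists were 4.99 and 4.38 in KD and 7.07 and 6.69 in control libraries. TWIST2 regions with MYOD in 4 lists had higher medians in 4 of 4 libraries, 5.54 and 5.60 in KD and 8.57 and 8.93 in control libraries. The mean difference in the median was -1.53 ± 0.714 normalized tags (SD, n = 4 libraries, exact sign permutation p = 0.13).

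Few MYOD-free active regions had SMARCA4 in more than 1 library. No SMARCA4 library had a peak at 2208 of them (85.3%), against 72.9% of all TWIST2 regions. Exactly 1 library had a peak at 316 (12.2%), against 17.1% of all TWIST2 regions. A peak in all 4 libraries was found at a single region (0.0386%), against 0.471% of all TWIST2 regions. Both KD and no control library had a peak at 6 (0.232%, background 0.722%). Both control and no KD library had a peak at 12 (0.463%, background 2.33%).

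The region with SMARCA4 in all 4 libraries was chr7:148787411-148787704. Its normalized SMARCA4 tag counts were 5.26 and 6.09 in KD and 11.1 and 9.82 in control libraries, 4.44-fold to 6.12-fold over input. It lay in an H3K27ac peak of 2808 and 2777 bp in the KD libraries, against 2880 and 2895 bp in control libraries. A MYOD peak lay only 17 bp away, so this region is at the edge of the rule.

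The 4 regions with the highest SMARCA4 tag counts in both KD and no control library were chr2:240161433-240161680, chr12:115651518-115651809, chr1:183164474-183164793 and chr19:31203412-31203685. The first had 8.03 and 6.82 normalized tags in KD replicates 1 and 2, and the nearest peak of control replicate 2 lay 140 bp away. At the second, with 5.26 and 7.06 tags and 8.88-fold and 10.2-fold over input in the KD libraries, the nearest control peaks were 161226 and 197173 bp away. At the regions on chromosomes 1 and 19, control SMARCA4 peaks lay 239 to 932 bp off. Of these 4 regions, the one on chromosome 12 was thus without a control SMARCA4 peak within 1000 bp.

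In the opposite direction, chr7:101754774-101755036 had the highest control values, with 16.3 and 20.8 normalized tags in control replicates 1 and 2. It stood at a Ty1 percentile of 99.1, and a peak of KD replicate 1 lay 188 bp away. Its H3K27ac peak was wider in KD, with 5116 and 5032 bp against 3056 and 3043 bp in control libraries. Next came chr12:116796826-116797071 with 10.5 and 7.81 tags, chr2:109204133-109204392 with 6.43 and 8.48, and chr1:54752894-54753150 with 6.21 and 7.36 in control replicates 1 and 2. The nearest KD peaks of these 3 were 2054 to 37209 bp away.

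Knockdown of TWIST2 did not separate the SMARCA4 shares at MYOD-free active regions. The KD libraries averaged 4.13% ± 0.273 and the control libraries 4.73% ± 3.30 (SD, n = 2 each), and the groups overlapped (difference -0.599 points, exact two-sided permutation p = 1, smallest possible 0.33). Without control replicate 2 the difference turned to 1.74 points, and with the same number of peaks from each library it was 1.12 points. With the 11835 highest-scoring peaks of each library, the shares were 3.75% and 3.90% in KD and 2.39% and 3.01% in control libraries.

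Expressed relative to the regions with MYOD, the KD and control libraries did not overlap. The SMARCA4 share at MYOD-free active regions was 0.169 and 0.188 of that at TWIST2 regions with MYOD in 4 lists in KD libraries, against 0.0809 and 0.134 in control libraries (exact two-sided permutation p = 0.33, the smallest that 2 against 2 libraries allow). With equal list lengths, again chosen after seeing the data, these ratios were 0.164 and 0.179 in KD and 0.0809 and 0.0775 in control libraries. With the upper 0.5 of each list they were 0.0976 and 0.145 in KD and 0.0548 and 0.0759 in control libraries. At the regions with MYOD themselves the mean share was 23.2% ± 0.272 over the KD libraries, against 41.3% ± 16.5 over the control libraries (SD, n = 2 each). The approximate pull-down efficiency given by HOMER also separated the groups, with 0.65% and 0.7% in KD and 0.88% and 1.83% in control libraries. Whether this efficiency bears on the ratios was not tested.

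SMARCA4 lay more often beside MYOD-free active regions, within 1000 bp, than on them, but the flanks are the larger target. They reach 1000 bp on each side of regions with a median width of 265 bp. This was not allowed for, so the higher share beside the regions shows no preference for the flanks. A SMARCA4 peak at a gap of 1 to 1000 bp was found for 14.3% and 12.5% of MYOD-free active regions in KD and 16.8% and 29.9% in control libraries. At TWIST2 regions with MYOD in 4 lists it was found for 6.04% and 6.90% in KD and 3.95% and 7.11% in control libraries. A region that SMARCA4 overlaps cannot count as flanked, and regions with MYOD were overlapped more often. Of the regions without overlap, 14.8% and 13% of MYOD-free ones were flanked in KD and 17.2% and 32.1% in control libraries. Of those with MYOD in 4 lists, 7.88% and 8.95% were flanked in KD and 5.61% and 15.1% in control libraries. On this footing the flanking share was higher at MYOD-free regions by 9.91 ± 5.66 points in 4 of 4 libraries, and over all regions by 12.3 ± 7.56 points (SD, n = 4, exact sign permutation p = 0.13 for each, both chosen after seeing the data). Counting overlapping and flanking peaks together, the difference from regions with MYOD in 4 lists was -15.4 ± 5.26 points, smaller than the -27.8 points for overlap alone. Of regions with MYOD in 1 to 3 lists and no overlap, 11.8% and 12.8% were flanked in KD and 11.5% and 23.9% in control libraries. With overlap counted, 21.3% and 22.8% of that class had SMARCA4 within 1000 bp in KD and 22.6% and 45.0% in control libraries. At MYOD-free regions it was 18.2% and 16.8% in KD and 19.2% and 36.9% in control libraries.

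**Figure D3:**
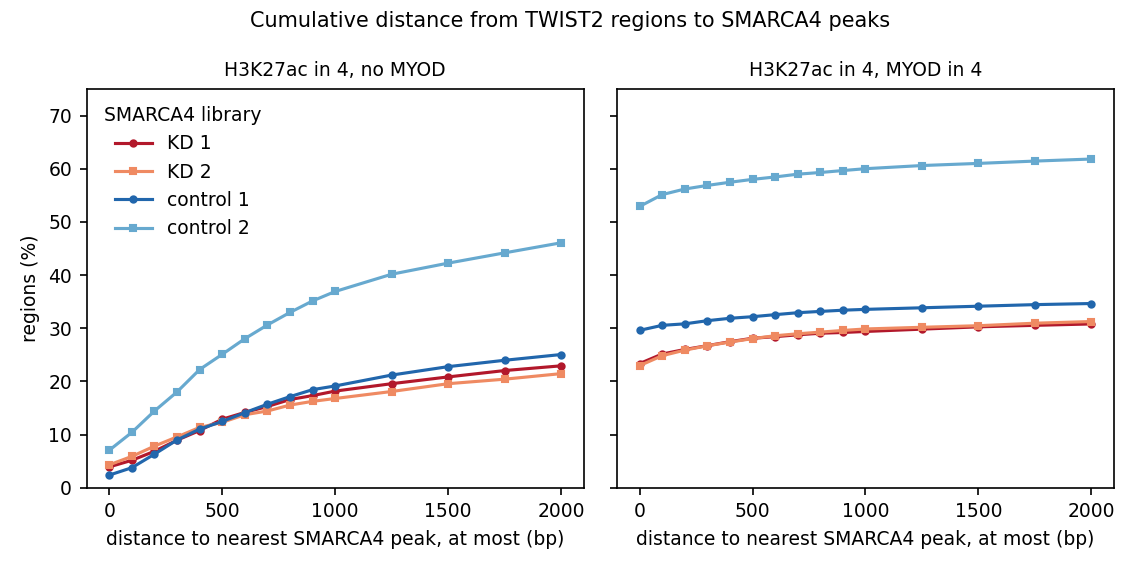
Cumulative share of regions (vertical axis, percent) with a SMARCA4 peak within the distance on the horizontal axis (bp, 0 meaning overlap), for MYOD-free active regions at left and TWIST2 regions with MYOD in 4 lists at right, in each SMARCA4 library. At left the curves climb from 2.39% to 7.07% at overlap to between 16.8% and 36.9% at 1000 bp, and at right most of the share is already present at overlap.

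MYOD, too, was commonly close by, as it was in H3K27ac domains in general. A MYOD region of at least 1 list lay in 94.2% of all 27442 domains. The gap from a MYOD-free active region to the nearest peak of any MYOD list had a median of 497 bp (quartiles 164 and 1563), against 12060.5 bp at TWIST2 regions with neither H3K27ac nor MYOD. Within 50 bp of a MYOD peak lay 266 regions (10.3%), and within 500 bp 1303 (50.3%). At the other end, 842 regions (32.5%) had no MYOD peak within 1000 bp and 141 (5.45%) none within 10000 bp. By library, the nearest MYOD peak was a median of 1078 and 1237 bp away in KD and 884 and 890 bp in control libraries. The label "without MYOD" therefore holds for the bound stretch itself and not for its surroundings. MYOD peaks had widths of 213 and 225 bp in the KD lists, against 159 and 179 bp in the control lists, and whether these widths bear on the gaps was not tested.

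SMARCA4 did not climb steadily over the whole range as MYOD came closer, though the group means rose within 500 bp. At the 266 regions with a MYOD peak at 1 to 50 bp, 6.77% had SMARCA4 in each KD library, and 3.01% and 13.2% in control libraries. At 51 to 250 bp the values were 5.36% and 4.82% in KD and 3.57% and 7.14% in control libraries. From 251 to 1000 bp all 4 libraries stayed between 2.03% and 5.03%. Beyond 5000 bp, at 243 regions, they were 3.29% and 4.12% in KD and 1.23% and 11.9% in control libraries, with control replicate 2 again apart.

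The regions nearest to MYOD had one at a gap of 1 bp, the smallest recorded and the value also given to abutting peaks, and 11 regions shared it. Among them chr2:16054919-16055196 and chr2:223162742-223162990 stood at Ty1 percentiles of 78.1 and 77.8, chr6:35656727-35657005 at 27.5 and chr6:16544624-16544880 at 7.30. The farthest region was chr2:52039706-52039964, 1291486 bp from any MYOD peak. Its H3K27ac peak measured 501 and 1000 bp in the KD libraries, against 2359 and 2262 bp in control libraries, and no SMARCA4 peak overlapped it. Next were chrX:140500001-140500358 at 241101 bp, chr14:64463517-64463793 at 208417 bp and chr3:80040470-80040726 at 198557 bp. Of these 4 remote regions, the one on chromosome X had a SMARCA4 peak, of 3.57 normalized tags and 8.90-fold over input, in control replicate 2.

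MYOD-free active regions were spread thinly over many H3K27ac domains. They fell in 2520 of 27442 domains (9.18%), with 1 such region in 2451 domains and 2 in 69, the most found. In 1876 of the 2520 (74.4%) the domain held no TWIST2 region of another class. In 320 (12.7%) a TWIST2 region with MYOD in 4 lists lay in the same domain. The domains were wide, with a median of 3711 bp (quartiles 2523 and 5759), against 3144.5 bp for domains with a TWIST2 and MYOD region and 2488 bp for the 13161 domains without any TWIST2 region. A width of 10000 bp or more was reached by 220 of them (8.73%), against 2.86% of all domains. Wider domains have more room to hold a TWIST2 region, and these widths were compared without allowing for that.

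A MYOD region of at least 1 list lay elsewhere in the domain for 2271 MYOD-free active regions (87.7%). By domain the share was 87.8%, beside 94.2% of all domains. The domains of MYOD-free active regions were chosen through a stretch without a MYOD peak, so their lower share is not a result. From the middle of a MYOD-free region to the middle of the nearest MYOD region in the domain the median distance was 667 bp. These domains held 3900 MYOD regions, 1168 of them (29.9%) in all 4 MYOD lists and 1306 (33.5%) in a single list. SMARCA4 overlapped 21.8% and 19.1% of those 1168 in KD and 28.2% and 50.5% in control libraries. At the 797 of them without a TWIST2 region it overlapped 18.9% and 17.3% in KD and 26.3% and 47.9% in control libraries. In the same domains, all 4 libraries thus had a higher SMARCA4 share at these MYOD regions than at the MYOD-free TWIST2 regions, a difference that was not tested.

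For 318 regions (12.3%) the domain had no MYOD region at all. The 308 domains concerned were narrow, with a median of 2142.5 bp against 3915 bp for the 2212 domains with MYOD. A wider domain has more room for a MYOD region, so this difference is a description only. SMARCA4 overlapped 11 (3.46%) and 13 (4.09%) of the 318 in KD and 5 (1.57%) and 38 (11.9%) in control libraries. The 95% Wilson interval was 8.83% to 16.0% in control replicate 2 and 0.673% to 3.63% in control replicate 1. These intervals take regions as independent and are no test between the libraries. The list of control replicate 2 was also longer, with 25013 peaks against 11835. At regions with MYOD elsewhere in the domain the shares were 4.01% and 4.36% in KD and 2.51% and 6.38% in control libraries.

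Within their domains, MYOD-free active regions lay less centrally than TWIST2 regions with MYOD, and seldom at the very edge. The distance from the middle of the region to the nearer edge, as a fraction of the domain's width (0 at an edge and 0.5 in the middle), had a median of 0.305, against 0.399 at TWIST2 regions with MYOD in 4 lists. A fraction of at least 0.4, the central stretch, was found for 24.5% of MYOD-free regions, and for 49.6% of regions with MYOD. A fraction under 0.1 was found for 4.87% of MYOD-free regions, and for 0.751% of regions with MYOD. In bp the nearer edge was 1045 bp away at MYOD-free regions and 1188 bp at regions with MYOD. In each H3K27ac list taken alone the medians of MYOD-free regions were 0.286 and 0.280 in KD and 0.266 and 0.262 in control libraries. Regions with MYOD had 0.399 and 0.401 in KD and 0.386 and 0.389 in control libraries. The difference was -0.120 ± 0.00555 over the 4 libraries (SD), and -0.123 ± 0.00875 among H3K27ac peaks of 2000 to 4000 bp only. Both H3K27ac and MYOD peaks were used to choose the regions, so these positions are a description and carry no test.

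**Figure D4:**
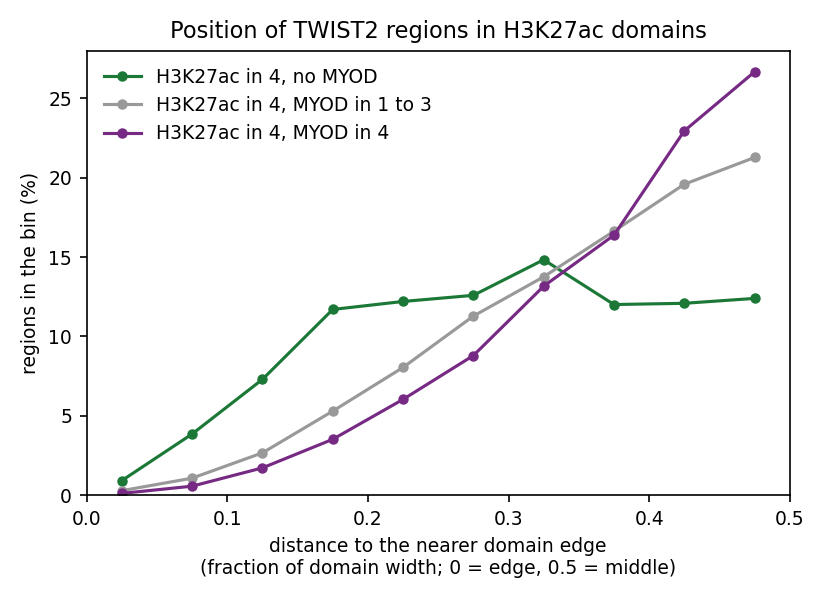
Position of TWIST2 regions in H3K27ac domains, as the share of regions (vertical axis, percent) per bin of distance to the nearer domain edge (horizontal axis, fraction of domain width), for 3 groups of TWIST2 regions with H3K27ac in 4 lists. The curve of MYOD-free regions is nearly flat over the inner part of the domain, whereas that of regions with MYOD keeps climbing to the middle (medians 0.305 and 0.399).

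MYOD regions of the same domains were more central. Those of all 4 MYOD lists had a median edge fraction of 0.356, and SMARCA4 peaks in these domains had 0.350 and 0.345 in KD and 0.358 and 0.349 in control libraries. Where the domain held a MYOD region, the nearest one was closer to the middle than the MYOD-free TWIST2 region in 1509 of 2271 cases (66.4%). No test was made of these positions.

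The H3K27ac peak over a MYOD-free active region was wide in every library. Its median width was 3211 and 3166 bp in the KD libraries, against 3031 and 2915 bp in control libraries. Over TWIST2 regions with MYOD in 4 lists it was 2649 and 2604 bp in the KD libraries, against 2495 and 2426 bp in control libraries. The median was higher at MYOD-free regions by 537 ± 34.4 bp over the 4 libraries (SD), a description with no test, since the regions were chosen through these same H3K27ac lists. Peaks of 10000 bp or more covered 5.79% and 5.60% of MYOD-free regions in KD and 5.68% and 5.29% in control libraries. For TWIST2 regions with H3K27ac and MYOD in 4 lists the shares were 3.68% and 3.58% in KD and 3.53% and 3.25% in control libraries.

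**Figure D5:**
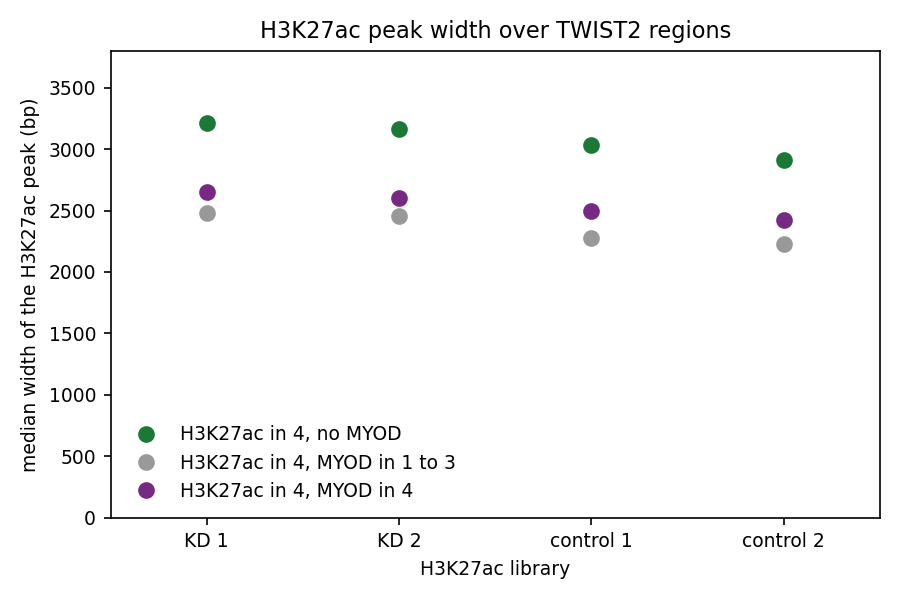
Median width (vertical axis, bp, from 0) of the H3K27ac peak over TWIST2 regions in each H3K27ac library, for MYOD-free active regions and for regions with MYOD in 1 to 3 or 4 lists. The MYOD-free regions have the highest median in each library, 2915 to 3211 bp, and all groups are slightly wider in KD than in control libraries.

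The median width over MYOD-free active regions was slightly higher in KD, as it was over other TWIST2 regions with H3K27ac in 4 lists. Over the whole lists it was lower in KD, at 1757 and 1777 bp, against 1835 and 1870 bp in control libraries. It averaged 3188.5 ± 31.8 bp over the KD libraries, against 2973 ± 82.0 bp over the control libraries (SD, n = 2 each). The ratio was 1.07 and the groups did not overlap. This is a description with no test, since the regions were chosen through these same H3K27ac lists. The same ratio was 1.07 for regions with MYOD in 4 lists and 1.10 for those with MYOD in 1 to 3. The peak was wider in both KD than in both control libraries at 1183 MYOD-free regions (45.7%), against a background of 46.9% of TWIST2 regions with H3K27ac in 4 lists. It was narrower in both KD libraries at 731 (28.2%), against 29.7%. Both shares lay near the background.

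The 4 MYOD-free active regions under the widest H3K27ac peaks were chr15:33375818-33376153, chr3:106935556-106935871, chr10:68587666-68587918 and chr13:111032350-111032629. The domain on chromosome 15 spanned 50716 bp and held 10 MYOD regions and 3 TWIST2 regions. Its peak over the region was called as 23498 and 4039 bp in the KD libraries, against 50446 and 50155 bp in control libraries, so the called peak was shorter in both KD libraries. On chromosome 10 the peak also measured less in KD, 19293 and 19624 bp against 34502 and 34406 bp in control libraries. Over the region on chromosome 3, where a SMARCA4 peak of 8.48 normalized tags lay in control replicate 2, it was 29114 and 29993 bp in the KD libraries, against 31552 and 19552 bp in control libraries. On chromosome 13 it was 24292 and 25436 bp in the KD libraries, against 30060 and 26256 bp in control libraries. At the other extreme, chr13:50181241-50181517, chr2:109952358-109952602, chr2:96581356-96581628 and chr21:44773029-44773281 lay in peaks of 501 to 760 bp. None of these 4 domains held a MYOD region, and their nearest MYOD peaks were 21505, 3095, 75655 and 7778 bp away.

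MYOD-free active regions occurred on each of chromosomes 1 to 22 and X. Their share of all TWIST2 regions with H3K27ac in 4 lists was lowest on chromosome 22, with 42 of 334 (12.6%), and highest on chromosomes 13, with 73 of 326 (22.4%), and X, with 69 of 311 (22.2%). Chromosome 19 had the highest share of TWIST2 regions with H3K27ac in 4 lists (48.7%), but its MYOD-free share among these, 17.4%, was that of the whole set. Neighbouring MYOD-free regions on a chromosome were a median of 419830.5 bp apart (quartiles 114962 and 1326660.2), and 109 of 2566 gaps (4.25%) were 10000 bp or less.

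They reached 1334 of the 2776 windows of 1000000 bp that held a TWIST2 region, and 660 of these held a single one. The densest window, chr14:61000001-62000000, held 10 MYOD-free active regions among 35 TWIST2 regions, of which 23 had H3K27ac in 4 lists and 7 of those MYOD in 4 lists. The windows chr19:39000001-40000000, chr13:24000001-25000000 and chr2:190000001-191000000 held 8 each, among 33, 34 and 34 TWIST2 regions. In the last of these, 23 regions had H3K27ac in 4 lists and 4 of them MYOD in 4 lists. The windows were chosen for their counts, which are therefore given as a description only.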

How the data were processed

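The series held 24 ChIP-seq samples of RD cells, of which 14 had a peak list, and the 10 input samples were not used here. Per the submitters' processing notes, the tools were HOMER 4.4, Bowtie2 2.3.4.3, bedtools 2.29.2 and SAMtools 0.1.19, and the builds GRCh37 and hg19. For Ty1, MYOD and H3K27ac the authors deposited positions alone, and the calling threshold is not given in the sources used here. Per the file headers, SMARCA4 peaks were called by HOMER for each library with its input, requiring 4-fold over that input and over the surrounding 10000 bp and a false discovery rate of 0.001. The deposited SMARCA4 values used are the normalized tag signal, the HOMER score and the fold ratio over input, all the authors' values for each peak. Start sites of a GRCh38 table lay in H3K27ac peaks in 6.06% to 6.73% of cases, and in 4.01% to 4.70% after a shift of 1000000 bp, so that table was not used for positions.

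Regions were merged, overlapped (at least 1 bp) and measured with pandas 2.3.3, scipy 1.17.1 and numpy 2.4.6 in Python 3.11.15, and matplotlib 3.10.9 drew the plots. The overlap code was tested on simulated data. Members, comparison classes and lists were chosen with earlier results of these data known. Libraries were compared by exact permutation tests, and regions were not treated as replicates. Regions were named, leaving out chromosome 8, by SMARCA4 pattern and tag signal, H3K27ac width, distance to MYOD and members per window. The rule asked for 8 regions with SMARCA4 in all 4 libraries, and there was 1. Gene lists, motifs and start sites were not analysed here. Alternatives changed the overlap rules, list lengths, the MYOD distance, the block and the libraries used.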

Additional observations from a re-analysis of the deposited data

How the results depend on the processing

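The number of MYOD-free active regions, 2589, was 1289 when no MYOD peak was allowed within 500 bp. It was 2391 to 3103 when the Ty1 peaks had to overlap by 0.5 of the shorter, when 3 H3K27ac lists were enough or when the region's centre had to lie in H3K27ac. Leaving out 1 library of the rule gave 2648 to 4561, the highest counts without Ty1 replicate 1 (4561) or 2 (4402), because a peak in 1 Ty1 list is then enough. The KD minus control difference in the SMARCA4 share, -0.599 points, turned to 1.12 points when every library kept an equal number of peaks and to 0.0193 points with the upper 0.5 of each list. Leaving out 1 SMARCA4 library gave -2.94 to 1.74 points, the positive value without control replicate 2. The replicate block left this difference at -0.599 points (exact sign permutation p = 1, n = 2 pairs) and the H3K27ac width difference at 215.5 bp. The deviations of same-numbered libraries had a correlation across regions of -0.0284 for SMARCA4 presence and 0.0107 for log2 width. The first was taken only over TWIST2 regions with any SMARCA4 peak. Such correlations cannot show whether same-numbered libraries shared a culture or batch, which the labels do not say. All 10 alternatives to the SMARCA4 difference from regions with MYOD in 4 lists kept its direction (-31.0 to -21.8 points, the nearest to 0 without control replicate 2), as did all 5 for each of the other 2 SMARCA4 contrasts and all 7 for H3K27ac width (157.5 to 307 bp). The exact permutation tests used could not pass 0.05 over 2 to 4 libraries under any setting. The missing tag counts of the H3K27ac, MYOD and Ty1 lists limit every statement on absence to peaks called.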
